A study of Mus musculus with 12 samples.

Results

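Regions bound by BATF that lie close together on a chromosome were described across 4 BATF ChIP-seq libraries of mouse helper T cells. They were chosen by position: the peaks of all 4 libraries were pooled, peaks sharing at least 1 bp were merged, and merged regions were joined into a group where the gap to the next region was 12.5 kb or less. Of 5873 merged regions, 477 lay in a group of 2 or more regions and are called clustered, and the other 5396 are called isolated. The clustered regions formed 228 groups. The rule used only where the regions lie, so group sizes and gaps are given below as a description, without a test. The sequence under a region, the cell type in which it was called and its distance to a gene were not used by the rule.

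The cells were naïve CD4+ CD62L+ T cells of C57BL6/J mice that were differentiated in culture and taken on day 5, without renewed activation. Th9 cells were grown with IL-4, human IL-2, TGF-β1 and antibody to IFN-γ. Th17 cells were grown with IL-6, TGF-β1, IL-23, IL-1β and antibodies to IFN-γ, IL-4 and IL-2. Each cell type has 2 BATF libraries, Th9 libraries 1 and 2 and Th17 libraries 3 and 4, and each was compared by the authors with the input and IgG libraries of the same number, so those controls carry no peak list of their own. The labels do not say whether libraries came from separate cultures or mice, so p-values over libraries measure only the spread between these samples. Fisher's exact tests below count regions, peaks or pairs of regions as units. Their p-values hold no spread between libraries.

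BATF is a basic leucine zipper protein of the AP-1 family, which pairs with JUN proteins on AP-1 sites and, together with IRF4 or IRF8, on composite sites where an IRF half-site stands next to an AP-1 site. Several binding sites of a factor within a short stretch of DNA are a common arrangement in the enhancers of genes that define a T cell subset.

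An AP-1 site was taken as TGACTCA or its reverse complement TGAGTCA. The sequences below show such sites in the neighbouring regions of 4 groups, those with the most AP-1 regions among the 20 groups named for their size or for their mix of cell types. They are plus-strand sequences of GRCm38 (mm10), written 5′ to 3′ and centred on the summit of the strongest peak of a region, with the AP-1 sites in capitals. Each spans 61 bases, or 141 bases where the nearest site lies farther from the summit. The first pair lies in *Slc17a8*, which encodes a vesicular glutamate transporter, at chr10:89590000-89590060 (called in both cell types) and chr10:89599491-89599551 (Th17 only). The second lies in an intron of *Bcl2*, an inhibitor of apoptosis, at chr1:106576490-106576630 (Th9 only) and chr1:106586481-106586541 (Th17 only). The third lies between genes, upstream of *Ahr*, a ligand-activated transcription factor of Th17 cells, at chr12:35553286-35553346 (Th17 only) and chr12:35562997-35563057 (Th9 only). The fourth lies in an intron of *Pvt1*, a long noncoding RNA gene beside *Myc*, at chr15:62240129-62240269 (both cell types) and chr15:62245524-62245664 (Th17 only).
Slc17a8 region in both cell types: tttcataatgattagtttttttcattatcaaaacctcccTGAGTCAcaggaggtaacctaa
Slc17a8 region in Th17: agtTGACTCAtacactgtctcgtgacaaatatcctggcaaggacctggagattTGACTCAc
Bcl2 region in Th9: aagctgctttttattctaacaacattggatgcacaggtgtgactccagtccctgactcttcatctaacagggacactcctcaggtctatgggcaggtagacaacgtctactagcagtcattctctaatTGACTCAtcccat
Bcl2 region in Th17: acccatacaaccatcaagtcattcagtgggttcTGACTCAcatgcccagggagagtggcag
Ahr region in Th17: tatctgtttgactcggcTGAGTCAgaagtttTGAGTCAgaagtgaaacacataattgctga
Ahr region in Th9: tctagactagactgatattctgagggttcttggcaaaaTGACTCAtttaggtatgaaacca
Pvt1 region in both cell types: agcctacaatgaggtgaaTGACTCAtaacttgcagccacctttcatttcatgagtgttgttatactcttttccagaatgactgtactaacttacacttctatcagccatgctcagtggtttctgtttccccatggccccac
Pvt1 region in Th17: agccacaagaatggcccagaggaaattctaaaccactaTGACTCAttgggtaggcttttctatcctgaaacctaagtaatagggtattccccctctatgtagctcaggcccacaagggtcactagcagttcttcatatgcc

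The *Slc17a8* region called in both cell types has a second AP-1 site outside the bases shown. At *Ahr*, the Th17 region holds 2 AP-1 sites and the Th9 region 1, so that AP-1 sequence was present under peaks called separately in the 2 cell types. The same held at *Bcl2*.

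Each peak carries the authors' fold enrichment, a ratio of the signal at its summit to the local background, and a −log10 q value, which is larger for stronger evidence. Most groups were pairs. Of the 228 groups, 215 (94.3%) held 2 regions, 11 held 3, 1 held 5 and 1 held 9, the last in repeated sequence that is described at the end. Clustered regions made up 8.12% of all merged regions (exact 95% binomial interval 7.44% to 8.85%; these intervals cover counting error only). The median span of a group was 6350.5 bp, from 437 to 34493 bp. Within groups the median of the 249 gaps was 5497 bp and the shortest was 95 bp. Of these, 116 were 5 kb or shorter, 34 of them no longer than 1 kb, while 96 lay between 5 and 10 kb and 37 between 10 and 12.5 kb. The widest gaps inside the limit were 12294 bp, between regions nearest to *Tmem263* and *Mterf2*, and 12360 bp, at *B3gnt5*. Just outside it, gaps of 12511 bp at *Vrk2* and 12515 bp at *Dis3l2* left neighbouring regions out of the groups. Windows of the same width beyond the limit held 210 and then 180 gaps, so the limit falls on a slowly declining series of gaps. The number of groups followed the largest libraries. It was 136 with 286 clustered regions without Th9 library 1, and 42 with 93 clustered regions without Th17 library 3, when 4.62% of the regions were clustered.

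**Figure D1:**
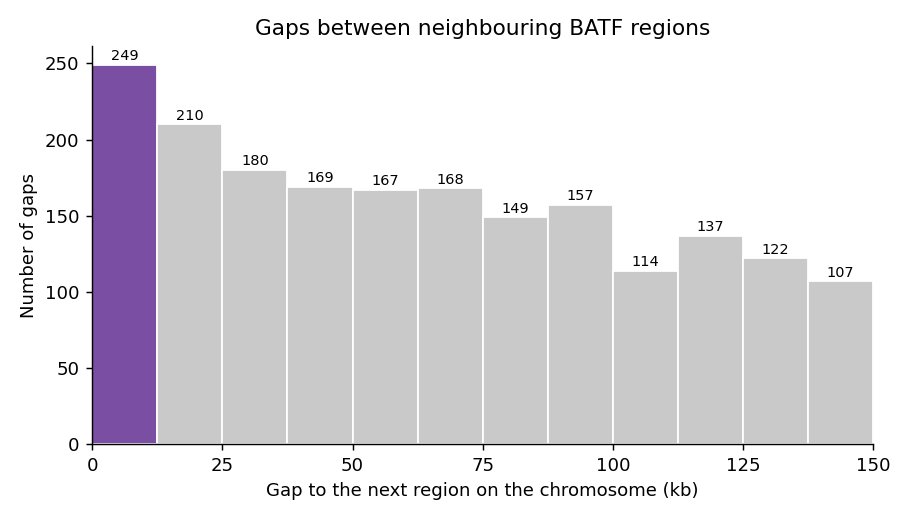
Number of gaps between neighbouring merged BATF regions (y axis) by gap length in kb (x axis), in windows as wide as the limit of 12.5 kb. The purple bar holds the 249 gaps within groups, and the grey bars the gaps that separate groups and isolated regions, 210 in the next window.

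Each library placed a minority of its peaks in groups. In Th9 library 1 it was 147 of 1709 peaks (8.60%, interval 7.31% to 10.03%), and in Th9 library 2 it was 37 of 241 (15.4%, 11.05% to 20.5%). In Th17 library 3 it was 340 of 4111 (8.27%, 7.45% to 9.15%), and in Th17 library 4 it was 28 of 199 (14.1%, 9.56% to 19.7%). The small libraries 2 and 4 had the higher shares in each cell type, and the Th9 and Th17 libraries overlapped. The means were 11.98% ± 4.77 in Th9 and 11.2% ± 4.10 in Th17 (SD, n = 2 libraries each), and the exact two-sided permutation test gave p = 0.667, where 2 libraries against 2 cannot go below 0.333. Groups made mostly of masked repeats, described at the end, held 12 of the 37 grouped peaks of Th9 library 2. Without the peaks in such groups, the shares were 7.57% and 10.9% in Th9 libraries 1 and 2 and 7.84% and 12.8% in Th17 libraries 3 and 4, and the direction turned, with a difference of −1.05 points (exact permutation p = 0.667). Depth cannot be read from peak lists, and the number of peaks per library limits the precision. A site without a peak in a library is below the threshold of that list and is not shown to be unbound.

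**Figure D2:**
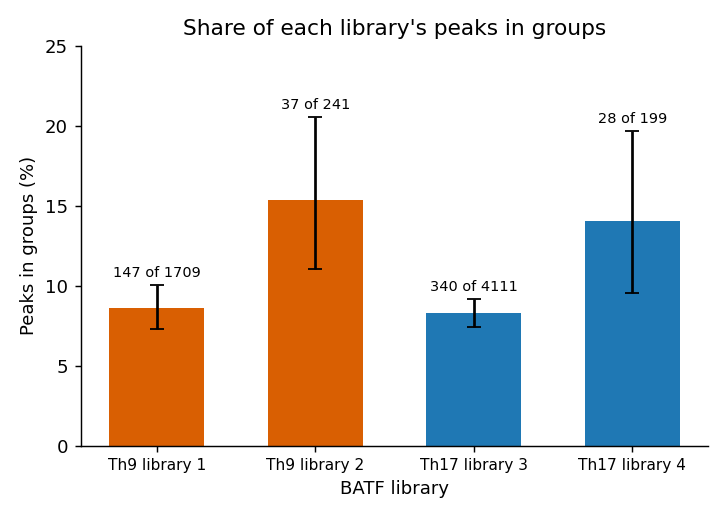
Percent of the peaks of each BATF library that lie in groups (y axis), by library (x axis), with Th9 in orange and Th17 in blue. Bars give the percent, error bars the exact 95% binomial interval, and the counts stand above. Libraries 2 and 4, at 15.4% and 14.1%, sit above libraries 1 and 3, at 8.60% and 8.27%.

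Many groups needed the pooled lists to form. In 151 of the 228 groups (66.2%) at least 2 regions were called in 1 and the same library, which was Th17 library 3 in 124 groups and Th9 library 1 in 31. Th9 library 2 had 2 or more regions in 3 groups and Th17 library 4 in 2. The other 77 groups (33.8%) consisted of regions that came from different libraries. By cell type, 131 groups held at least 2 regions called in Th17 cells, 37 held at least 2 called in Th9 cells, and 6 of these did so in both.

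A group mixed the cell types in 99 of 228 cases (43.4%, interval 36.9% to 50.1%), while 106 groups had Th17 calls only and 23 had Th9 calls only. The mix mostly came from separate regions. In 72 of the 99 mixed groups, regions called only in Th9 cells lay beside regions called only in Th17 cells and no region was common to both. The other 27 held a common region, which in 18 groups lay beside Th17-only regions and in 6 beside Th9-only regions, and in 3 every region was common. Of the 72 groups with separate regions, 63 rested on Th9 library 1 and Th17 library 3 alone. This share moved with single libraries. Without Th9 library 1, 14.0% of the remaining groups were mixed, and without Th17 library 3, 19.0% were. In 18 of the mixed groups, 3 or 4 libraries had called regions. Groups in which all 4 libraries had called a region numbered 3, the groups in *Arhgef3*, beside *B930018H19Rik* and *Dusp4*, and the group of repeats on chromosome 9.

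The span of groups was described by their mix of cell types, without a test. The median span was 6243 bp in mixed groups, 6833 bp in groups with Th17 calls only and 4852 bp in those with Th9 calls only. The median of the best −log10 q in a group was 7.04 in mixed groups and in groups with Th17 calls only, and 4.75 in groups with Th9 calls only. Regions of a group were often unequal in strength, since the best −log10 q was at least 2 times the lowest in 77 groups, with a median ratio of 1.63.

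Whether close neighbours mix the cell types more or less often than distant ones was tested on pairs of next neighbours that were each called in 1 cell type only. Within the limit of 12.5 kb, 75 of 212 such pairs (35.4%, interval 29.0% to 42.2%) joined a Th9 and a Th17 region. Among wider-spaced neighbours it was 2175 of 5239 (41.5%, 40.2% to 42.9%). The difference of −6.14 percentage points did not pass the two-sided Fisher's exact test (p = 0.0757). Pairs of Th9 regions made up 27 of the close pairs (12.7%) and 460 of the wider ones (8.78%), and pairs of Th17 regions made up 110 (51.9%) and 2604 (49.7%). Without Th9 library 2 the difference was −7.01 points with Fisher's exact p = 0.0451, and without Th9 library 1 it was −1.24 points with Fisher's exact p = 0.719. With 50% reciprocal overlap as the rule for merging it was −0.640 points (Fisher's exact p = 0.895), with input as the only control −2.06 points (Fisher's exact p = 0.592), and with equal numbers of top peaks −15.9 points (Fisher's exact p = 0.383). The share was 29.2% of 24 pairs at gaps of up to 1 kb, 36.1% of 72 pairs from 1 to 5 kb and 36.2% of 116 pairs from 5 to 12.5 kb, with intervals that overlap those of wider gaps.

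**Figure D3:**
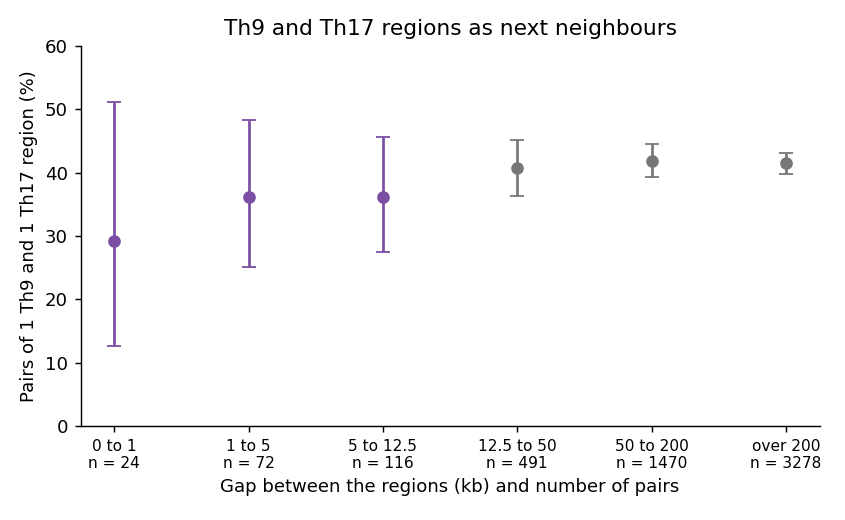
Percent of next-neighbour pairs made of a Th9-only and a Th17-only region (y axis) by the gap between them in kb (x axis), among pairs in which each region was called in 1 cell type. Points give the percent with exact 95% binomial intervals, purple within the limit and grey beyond it, and n is the number of pairs. The share runs from 29.2% at the shortest gaps to 41.5% over 200 kb, with wide intervals at short gaps.

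Single clustered regions were more often common to the cell types. A peak of a Th9 library and a peak of a Th17 library shared the region in 39 of 477 clustered regions (8.18%, interval 5.88% to 11.01%) and in 171 of 5396 isolated regions (3.17%, 2.72% to 3.67%). The two-sided Fisher's exact test gave an adjusted p of 2.55e-06 (Benjamini-Hochberg over 6 comparisons of clustered with isolated regions). It counts each region of a group, and these are not independent. With 1 region taken per group the share was 7.46% against 3.17% (Fisher's exact test, adjusted p = 0.00556). Of the 39, 8 lay in a group of masked repeats on chromosome 9 and 3 in another on chromosome 14, both described at the end. Without regions masked for 50% or more of their bases the shares were 7.14% and 3.71%, and the adjusted p was 0.00894 (Fisher's exact test). Without Th17 library 3 they were 6.45% and 3.02%, and the adjusted p was 0.431 (Fisher's exact test). With equal numbers of top peaks from each library they were 23.7% and 11.6%, and the adjusted p was 0.234 (Fisher's exact test). With only peaks of −log10 q of 5 or more the shares were 15.6% and 6.54%, and the adjusted p was 0.00164 (Fisher's exact test). Within 4 separate ranges of −log10 q of all regions, no difference passed the test. From 2 to 3 the shares were 2.44% of 82 clustered and 0.0771% of 1297 isolated regions (Fisher's exact test, adjusted p = 0.0806), and from 3 to 5 it was 0 of 151 and 5 of 2152 (Fisher's exact test, adjusted p = 1). At 8 or more they were 26.2% of 122 clustered and 19.7% of 731 isolated regions (Fisher's exact test, adjusted p = 0.154), and from 5 to 8 they were 4.10% of 122 and 1.73% of 1216 (adjusted p = 0.129, Fisher's exact test). Clustered regions were stronger as a set, with a median −log10 q of 5.02 against 4.12 and a median fold enrichment of 6.04 against 5.59. By library, the median fold enrichment of clustered and isolated peaks was equal in Th9 library 1 (5.54) and in Th9 library 2 (6.402), and it was 6.21 against 5.65 in Th17 library 3 and 7.57 against 7.02 in Th17 library 4.

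AP-1 sites were more frequent at clustered regions as a set. Within 100 bp of the summit, 122 of 477 clustered regions held an AP-1 site (25.6%, interval 21.7% to 29.7%) and 875 of 5396 isolated regions did (16.2%, 15.2% to 17.2%). The two-sided Fisher's exact test gave an adjusted p of 2.55e-06. Regions of the same group are not independent, and with 1 region taken per group the share was 28.5% (Fisher's exact test, adjusted p = 2.91e-05). That share depends on the region taken, since the strongest region held a site in 32.9% of groups and the weakest in 18.9%. These 2 choices were not tested. Among regions called in both cell types the order was the other way, with 16 of 39 clustered (41.0%) and 89 of 171 isolated (52.0%), which was not tested. By library, the share at the library's own summits was 17.7% of 147 clustered peaks and 14.6% of 1562 isolated peaks in Th9 library 1, and 37.8% of 37 and 29.9% of 204 in Th9 library 2. It was 29.7% of 340 and 17.8% of 3771 in Th17 library 3, and 42.9% of 28 and 39.8% of 171 in Th17 library 4. All 4 libraries had the higher share in clustered peaks, but the difference passed the test in Th17 library 3 alone (Fisher's exact test, adjusted p = 1.23e-06 there, and 0.454, 0.454 and 0.836 in libraries 1, 2 and 4). Without Th17 library 3, the shares were 16.1% and 17.2% and the direction turned, with Fisher's exact adjusted p = 0.888. With only peaks of −log10 q of 5 or more they were 34.8% and 30.7% (adjusted p = 1, Fisher's exact test), and with the same number of top peaks from each library 31.6% and 40.4% (adjusted p = 0.620, Fisher's exact test).

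Stronger regions held an AP-1 site more often, whether clustered or isolated. With a −log10 q of 2 to 3 it was 12.2% of 82 clustered and 5.94% of 1297 isolated regions. From 3 to 5 it was 14.6% of 151 and 9.76% of 2152, and from 5 to 8 it was 28.7% of 122 and 20.7% of 1216. At 8 or more the shares were 45.1% of 122 and 46.0% of 731. Clustered regions were ahead in the 3 lower ranges, by 4.81 to 7.96 percentage points, and the difference was −0.882 points in the highest. No single range passed Fisher's exact test after adjustment over 8 tests (adjusted p = 0.129 in each of the 3 lower ranges and 1 in the highest).

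**Figure D4:**
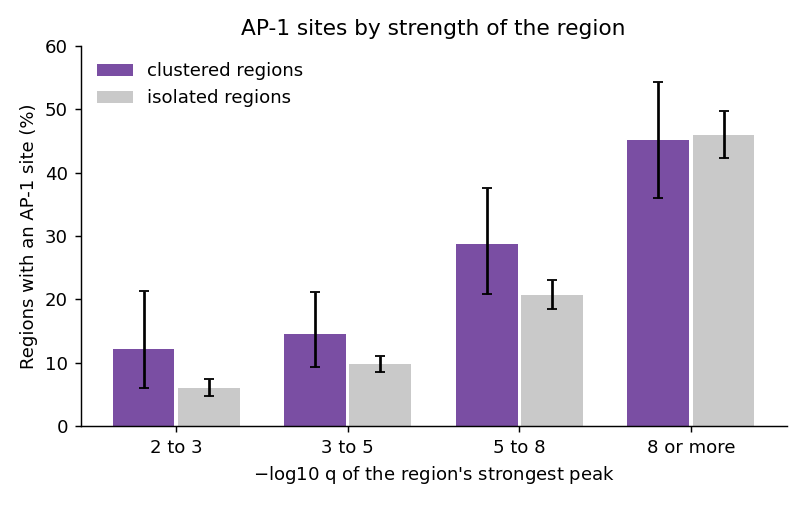
Percent of regions with an AP-1 site within 100 bp of the summit (y axis) by −log10 q of the strongest peak of the region (x axis), for clustered (purple) and isolated (grey) regions. Error bars are exact 95% binomial intervals. Both rise with strength, from 12.2% and 5.94% to 45.1% and 46.0%.

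Most groups had no AP-1 site. No region of the group held a site in 128 of 228 groups (56.1%), 1 region did in 78, and 2 regions did in 22. In 79 groups part of the regions had one, and in 21 every region had one, among them the groups at *Slc17a8*, *Ahr* and *Pvt1* shown above. The strongest region of a group held a site in 32.9% of groups (interval 26.8% to 39.4%) and the weakest in 18.9% (14.0% to 24.6%). Of the next neighbours within the limit, 22 of 249 pairs (8.84%) had a site at both regions, and of the wider-spaced ones 210 of 5603 (3.75%). Among the 72 groups with separate Th9 and Th17 regions, 5 had a site on both sides, 16 at a Th17 region only and 8 at a Th9 region only. In groups with Th9 calls only, 4 of 47 regions held a site (8.51%), against 60 of 214 (28.0%) in groups with Th17 calls only and 58 of 216 (26.9%) in mixed groups. Over all clustered regions called in Th9 only, 19 of 129 held a site (14.7%), against 11.2% of isolated ones, and of those called in Th17 only, 87 of 309 did (28.2%), against 16.6%. These shares were not tested. Among regions with a site in the window of 100 bp to either side of the summit, the median distance from the summit to the nearest site was 31 bp in clustered and 29 bp in isolated regions.

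No difference in the other motifs passed the test. The composite bZIP:IRF site, which contains an AP-1 site and so overlaps that motif, was present at 11 clustered regions (2.31%) and 69 isolated ones (1.28%), with an adjusted p of 0.187 by Fisher's exact test. STAT consensus sites (TTCNNNGAA) were at 8.60% and 8.90%, and RUNX sites (TGTGGTT, either strand) at 7.34% and 7.19%, each with adjusted p = 0.933 by Fisher's exact test. These percentages count letters in a window and not bound factors.

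Groups lay in introns and between genes. Summits of clustered regions fell in an intron in 219 cases (45.9%), in an exon in 17 and between genes in 241 (50.5%), and those of isolated regions in 42.3%, 3.34% and 54.3%. In 100 groups every summit lay in the body of the same gene, and in 105 no summit lay in a gene body. The span of 103 groups overlapped no gene, that of 117 overlapped 1 gene and that of 8 overlapped 2 or more. A start site stood within 1 kb of a summit in 14 clustered regions (2.94%) and 181 isolated ones (3.35%), which did not pass the test (Fisher's exact adjusted p = 0.933). These 14 regions were in 14 groups, so that each had a partner more than 1 kb from a start site, at *Tab2* at −1500 bp from the same one. Among them were groups at *Ctla4*, *Cd53*, which encodes a tetraspanin of leukocytes, and *Tab2*, which encodes an adaptor of the TAK1 kinase. For 79 groups (34.6%) the nearest start site was more than 50 kb away.

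The largest group outside masked repeats held 5 regions across 15779 bp between genes on chromosome 15, 602197 and 642182 bp from the nearest start sites, those of *Macroh2a3* and *Gm20740*. Its regions alternated in part between the cell types. Th9 library 1 called the first (fold enrichment 8.56, −log10 q 9.59), Th9 library 2 the fourth (6.402 and 4.62) and Th17 library 3 the other 3, with fold enrichments of 9.60, 9.03 and 6.78. Th17 library 4 had no peak there, and none of the 5 held an AP-1 site. Among the groups of 3 regions, the *Bcl2* group in an intron had the highest summed −log10 q outside masked repeats. Th9 library 2 called the first at 11.2-fold with −log10 q 15.3, Th9 library 1 the second with 6.04 and 4.60, and Th17 library 3 the third with 8.20 and 9.30. The last 2 carry the AP-1 sites shown above, and each region was called in 1 library.

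The group in *Pdlim5*, which encodes a PDZ and LIM domain protein, had a Th17-only region of library 3 with a fold enrichment of 11.3, followed by 2 regions of Th9 library 1 with 7.55 and 5.03. Libraries 2 and 4 had no peak in it. In *Cubn*, the gene of the endocytic receptor cubilin, Th17 library 3 called 3 regions and Th9 library 1 called 2 of the same. The stronger common region had fold enrichments of 6.54 in Th9 library 1 and 10.8 in Th17 library 3 and held an AP-1 site. The group in *Vmp1*, an autophagy gene that neighbours *Mir21a*, combined a Th9 library 1 region with a fold enrichment of 9.56 and a composite bZIP:IRF site with 2 weaker regions of Th17 library 3, at 5.08 and 4.52. In these groups the strongest region could belong to either cell type.

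Groups of 3 with Th17 calls only lay at *Rpa1* and *Smyd4*, where the fold enrichments in Th17 library 3 were 5.08, 7.34 and 6.66, and at *Me1*, the gene of malic enzyme, where they were 4.57, 5.08 and 6.21. No other library had a peak in either group, and neither held an AP-1 site. In *M1ap*, a gene of meiosis, a Th9 library 1 region (6.04) lay between 2 regions of Th17 library 3 (6.96 and 6.21). In *Map4k5*, which encodes a kinase of the JNK pathway, a region common to Th9 library 1 (5.03) and Th17 library 3 (7.34) lay between 2 Th17-only regions of library 3 (6.21 and 5.08). The group between *Esp15* and *Esp38* on chromosome 17 had 3 regions of Th9 library 1 alone, with an AP-1 site in the last. Their fold enrichments were 1.76, 1.57 and 1.68, against a median of 6.04 for clustered regions. Such low values lie in the range of the group of masked repeats between *Ube2e2* and *Gm2237*, described at the end. No region of the *Esp15* and *Esp38* group counted as masked, so leaving out masked regions did not remove it. Whether its peaks reflect BATF binding was not tested.

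**Figure D5:**
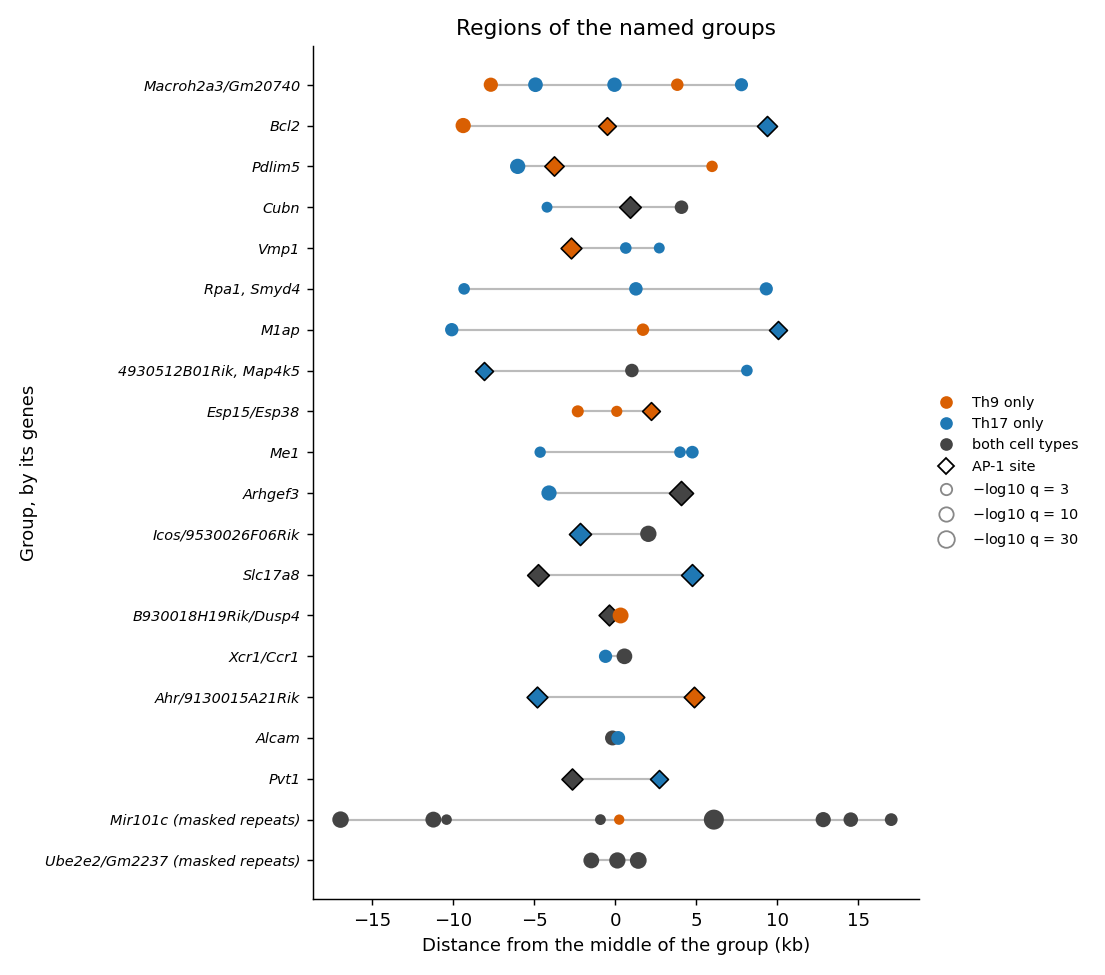
Positions of the regions in the 20 named groups, as distance in kb from the middle of each group (x axis), with the genes of each group on the y axis. Orange marks regions called in Th9 only, blue in Th17 only and dark grey in both, diamonds mark regions with an AP-1 site, and larger symbols a higher −log10 q. A slash separates the nearest genes on either side of a group that overlaps no gene. The group at *Macroh2a3* has 5 regions and the one at *Mir101c* has 9.

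Among the mixed groups, those with strong peaks in both cell types were ranked by the lower of their best Th9 and best Th17 −log10 q. Outside repeats the *Arhgef3* group was first. A region in an intron of the gene, at chr14:27384152-27384481, had fold enrichments of 18.1 and 10.5 in Th9 libraries 1 and 2 and 19.8 and 12.97 in Th17 libraries 3 and 4, and held an AP-1 site. A second region 7848 bp before it was called in both Th17 libraries, with fold enrichments of 8.68 and 11.3 in libraries 3 and 4, and in no Th9 library. The group thus joined a region of all libraries to one seen in both Th17 libraries alone.

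In *Slc17a8* the common region reached 11.4-fold enrichment in Th9 library 2 and, among the Th17 libraries, 8.47 in library 3 and 5.64 in library 4. Its neighbour, 294 bp downstream of the start site, had 11.9 in Th17 library 3 and no peak elsewhere. A common region 76739 bp beyond the start site of *Icos*, a costimulatory receptor gene, had 9.40 in Th9 library 2 and 15.3 and 15.1 in Th17 libraries 3 and 4, beside a Th17 library 3 region with 12.4 and an AP-1 site. Both groups lacked a call in Th9 library 1.

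Between *Xcr1* and *Ccr1*, which encode chemokine receptors, a region had fold enrichments of 11.1 in Th9 library 1 and 12.3 in Th17 library 3, with a Th17 library 3 region of 6.402 at a gap of 957 bp. In *Alcam*, the gene of an adhesion molecule that binds CD6 on T cells, a region called in Th9 library 1 (9.25) and Th17 library 4 (9.02) lay 122 bp from a region of Th17 library 3 (7.90). Neither of these 2 groups held an AP-1 site, and their gaps were no longer than 1 kb. A group nearest to *B930018H19Rik* and *Dusp4*, a phosphatase of MAP kinases, had a region with 5.03 in Th9 library 1 and 9.60 and 6.78 in Th17 libraries 3 and 4, and 462 bp away a Th9-only region with 13.1 and 6.94 in Th9 libraries 1 and 2. Here the stronger region was the Th9 one, called in both Th9 libraries and no Th17 library.

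In *Pvt1* the common region had 9.54 in Th9 library 1 and 10.2 in Th17 library 3, and its Th17-only neighbour had 6.21 in library 3. Upstream of *Ahr* no region was common. The Th17 library 3 region (fold enrichment 9.60, −log10 q 11.7) lay at −18327 bp and the Th9 library 1 region (9.06 and 10.7) at −28038 bp from the start site. Their fold enrichments were close. Libraries 2 and 4 had no peak in either the *Pvt1* or the *Ahr* group.

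Genes were followed through 10 lists, of which all but the last, a list of long neuronal genes, are of T cell biology. Of the 262 genes, 12 (4.58%, interval 2.39% to 7.86%) had a clustered region in the gene body or within 10 kb, against 149 of 21000 protein-coding genes (0.710%). The lists were chosen with earlier results of these data known, so these shares are a description and were not tested. Any merged region was near 89 of the 262 (34.0%), against 2963 of 21000 (14.1%). Without the long neuronal genes it was 10 of 238 genes (4.20%, interval 2.03% to 7.59%) near a group and 68 of 238 (28.6%) near any region. Listed genes were longer than protein-coding genes in general, with median lengths of 23.8 and 16.7 kb, and genes near a group had a median of 70.3 kb, so that length moved with these counts, and its part was not tested. Cytokine genes (24), cytokine receptor genes (32), chemokine receptor and homing genes (22) and T cell receptor signalling genes (30) had none within 10 kb of a clustered region. With 0.710% of all protein-coding genes near a group, lists of this size can hold none. Farther out, groups lay 23233 bp from the start site of *Il10*, 25999 bp from that of *Il22* and 26089 bp from that of *Il7r*.

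Helper T lineage transcription factor genes had 4 of 38. At *Prdm1*, which encodes the repressor BLIMP-1, 2 intronic regions of Th9 library 1 had fold enrichments of 7.59 and 7.55. At *Runx2*, a RUNX factor gene, 2 intronic regions of the same library had 5.03 and 7.55. No Th17 library and not Th9 library 2 had a peak in either group. At *Ets1*, a founding ETS factor gene, a Th17 library 3 region (5.65) lay 9142 bp from a Th9 library 2 region (5.33). Near *Klf2*, a factor of quiescence and T cell trafficking, a region 12309 bp beyond the start site had 10.1 in Th9 library 1 and 9.03 in Th17 library 3 and an AP-1 site. It was the only region of its group within 10 kb of the gene. Its partner, a Th17-only region without an AP-1 site, lay in the body of *Eps15l1* at a gap of 12288 bp, just inside the limit. The 4 genes thus divided into Th9-only and mixed groups.

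The list of AP-1, BATF and IRF partner genes had 1 of 19, *Batf3*, a BATF family member. Its group had an intronic Th17 library 3 region (7.68) with an AP-1 site and a Th9 library 1 region (7.05) at 16699 bp from the start site. Costimulatory and checkpoint genes had 2 of 29. *Havcr2*, which encodes the checkpoint receptor TIM-3, had a Th17 library 3 region (5.65) and, 7098 bp on, a stronger Th9 library 1 region (9.38) with an AP-1 site, with no peak of libraries 2 and 4. At *Ctla4*, an inhibitory receptor gene, a Th17 library 4 region (9.19) lay at −126 bp from the start site and an intronic region of Th9 library 2 (6.402) and Th17 library 3 (9.60) lay 4361 bp beyond it, neither with an AP-1 site. Suppressor and feedback genes had 2 of 24. At *Rgs1*, a regulator of G protein signalling, a Th17 library 3 region (9.03) and a Th9 library 1 region (9.56) each held an AP-1 site. At *Ptpn2*, a phosphatase of JAK and STAT proteins, a Th17 library 3 region (9.03) and a Th9 library 1 region (8.04) held none. Among these 5 genes, only *Ctla4* had a region common to both cell types, and 72.7% of all mixed groups had none.

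Survival and death genes had 1 of 20, *Bcl2*. Long neuronal adhesion, channel and fragile-site genes, which served as a list of long genes without a known role in T cells, had 2 of 24, *Cntnap2* and *Macrod2*, and 21 of 24 had a merged region of any kind near them. The fold enrichments there were low, 4.83 and 5.36 in Th9 library 1 and 5.08 and 4.11 in Th17 library 3, with no AP-1 site and no peak in libraries 2 and 4. The group in *Macrod2* is 1 of the 10 groups of mostly masked regions described at the end. The median length in this list was 1403 kb, and in the other lists it ran from 5.11 kb for cytokine genes to 49.5 kb for helper T lineage transcription factor genes.

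Groups in repeats are counted in all values above unless stated otherwise. In 10 groups with 29 regions most regions were masked as repeats for 50% or more of their bases. Clustered regions as a whole were not masked more often, with 71 of 477 (14.9%) against 914 of 5396 isolated ones (16.9%). The largest of all groups, 9 regions on chromosome 9 from 3000960 to 3035452, lay near the start of the assembled chromosome, with *Mir101c* as the nearest gene, and had a median of 96.7% masked bases. Its 9 regions had fold enrichments of 1.67 to 2.12 in Th9 library 1, 1.79 to 3.71 in Th9 library 2 and 1.77 to 2.35 in Th17 library 3 wherever these called them, and Th17 library 4 called 3 of them with 1.12 to 2.54. A −log10 q of 216 in Th9 library 1 thus stood beside a fold enrichment of 1.99. Another group, of 3 regions common to both cell types on chromosome 14, between *Ube2e2* and *Gm2237*, had fold enrichments of 1.33 to 2.08 in libraries 1, 2 and 3 and no peak in library 4. Neither group held an AP-1 site.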

How the data were processed

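According to the submitters' processing notes, reads were trimmed with Trim Galore 0.4.3, aligned to mm10 with Bowtie2 and called with MACS2 2.1.0, and the paper's methods give paired-end mode, a q limit of 0.01 and no removal of duplicates. For every peak the authors computed the deposited fold enrichment, a ratio of the signal at the summit to the local background. The −log10 p and −log10 q values of each peak are also the authors', as deposited. The integer score, 1 column per list, was not used. The 4 lists with both controls combined entered the results, and each list's control is known from its name. The lists hold no read counts, so no value was scaled by depth.

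Genes came from curated transcripts of RefSeq for GRCm38.p6 (annotation release 108.20200622, 26180 genes). A gene was near a group where a clustered region overlapped its body or lay within 10 kb, and a promoter region had its summit within 1 kb of a start site. Motifs were searched on both strands within 100 bp of the summit of the strongest peak. Shares were compared by two-sided Fisher's exact tests, adjusted by Benjamini-Hochberg over 6 comparisons, over 8 within ranges of −log10 q and over the 4 libraries, with a threshold of 0.05. Named groups are the 12 with the most regions, ties being ordered by the higher summed −log10 q of their regions, and the 10 mixed groups with the highest value of the lower of their best Th9 and best Th17 −log10 q. Up to 4 genes of each of 10 lists were named by their clustered regions, and all 262 listed genes were found in the annotation. Sequences were to span 61 bases, and 141 were shown where the site lay farther away, a choice made after the positions were seen. The members and the lists were chosen with earlier results of these data known. The calculations were tested on simulated data. Scripts ran in Python 3.11.15. Tables were handled with pandas 2.3.3 and numpy 2.4.6, tests came from scipy 1.17.1, the genome was read with pysam 0.24.0, and plots were drawn in matplotlib 3.10.9.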

Additional observations from a re-analysis of the deposited data

How the results depend on the processing

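Of 99 recalculated values, 67 were kept, which means the same direction and side of the threshold for a tested difference, a value within the 95% interval for a share, and within 1.5 times for a count. The number of groups (228) was 68 with a −log10 q of 5 or more, 107 and 410 with gap limits of 5 and 25 kb, and 17 with equal numbers of top peaks from each library, and the clustered regions (477) numbered 141, 223, 869 and 38. By construction, a shorter limit cannot add clustered regions. It can split a group, so the lower number of groups was observed and not fixed in advance. Leaving out 1 library at a time gave 42 to 222 groups and 93 to 465 regions. The percent of regions clustered (8.12%) was 7.22% with IgG as the only control, 6.44% with a −log10 q of 5 or more, 3.80% and 14.8% with limits of 5 and 25 kb, 9.11% with 50% reciprocal overlap, 6.08% with equal numbers of top peaks, and 4.62% to 8.04% with 1 library left out. The percent of groups that were mixed was 58.8% with equal numbers of top peaks and 14.0% to 43.7% with 1 library left out.

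The AP-1 difference (9.36 points) was 4.07 points with a −log10 q of 5 or more, −8.80 points with equal numbers of top peaks, and −1.07 to 10.9 points with 1 library left out, and its adjusted p by Fisher's exact test ran from 1.61e-10 to 1 over the alternatives. The difference in regions common to both cell types (5.01 points) was 9.07 points with a −log10 q of 5 or more, 12.1 points with equal numbers of top peaks, where it no longer passed the test, and 3.43 to 5.90 points with 1 library left out. The neighbour difference in mixing (−6.14 points) was −7.01 to −1.24 points with 1 library left out, −0.640 points with 50% reciprocal overlap, −2.06 points with input as the only control and −15.9 points with equal numbers of top peaks. Over all its alternatives, p by Fisher's exact test ran from 0.0451 to 0.895. The Th9 minus Th17 difference in the share of a library's peaks in groups (0.807 points) was −1.05 points without groups of masked repeats, an alternative chosen after seeing the data. The promoter difference (−0.419 points) was 1.58 points at 10 kb from the start site. Counting only groups of 3 or more regions, 1 listed gene was near a group. Apart from the effect of fewer regions, the cause was not tested. Joining regions less than 500 bp apart, another alternative chosen after seeing the data, left 209 groups and 437 clustered regions with 7.47% of regions clustered and 43.1% of groups mixed, and the AP-1, neighbour and common-region differences kept their direction and their side of the threshold.

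No paired analysis was possible because no library number occurs in both cell types, Th9 having 1 and 2 and Th17 having 3 and 4. The number of peaks per library, from 199 to 4111, limits what the small libraries can show.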

Other observations

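The following groups were chosen after their values were seen, and lie outside the rule for named groups. Far upstream of *Bach2*, a transcriptional repressor gene of the bZIP family, 2 regions with AP-1 sites lay 549 bp apart and were called in Th17 cells only. The first had a fold enrichment of 7.34 in Th17 library 3, and the second had 9.03 in Th17 library 3 and 7.48 in Th17 library 4. Upstream of *Tet2*, which encodes an enzyme that oxidises methylated cytosine, 2 regions with AP-1 sites lay 346 bp apart. The stronger had 8.002 in Th9 library 2 and 10.2 in Th17 library 3, and the weaker 4.52 in Th17 library 3.

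Between *Smim20* and *Rbpj*, the transcription factor gene of the Notch pathway, there were 2 groups, each with a composite bZIP:IRF site. In the first, a common region had 8.04 in Th9 library 1 and 13.9 and 10.3 in Th17 libraries 3 and 4, and its neighbour at a gap of 340 bp had 7.90 in Th17 library 3. In the second, with Th17 calls only, the regions lay 9330 bp apart. A common region in *Evi5*, beside *Gfi1*, a repressor gene of lymphoid cells, had 6.94 in Th9 library 2 and 12.4 in Th17 library 3 with an AP-1 site, and lay 1053 bp from a Th17 library 3 region with 4.52.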
